A study of Mus musculus with 8 samples.

Results

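Interferon response genes were followed here in mouse kidney with and without a conditional knockout of Kdm1a. The 31 genes were chosen by name, and each was found by its Ensembl gene ID among the 49315 genes counted in the series. They fall into 7 genes of nucleic acid sensing and signalling (Ddx58, Ifih1, Dhx58, Mavs, Zbp1, Eif2ak2 and Adar), 5 transcription factors (Irf1, Irf3, Irf7, Irf9 and Stat2) and 19 effectors. Polyadenylated RNA of frozen kidney was sequenced from 4 control and 4 knockout libraries, and the study asks how transcription changes once Kdm1a is lost in the kidney. The product of Kdm1a, LSD1, is a histone H3 demethylase that works within repressor complexes. The labels name the genotypes only as control and Kdm1a conditional knockout. They do not give the recombinase, the cells it acts in, or the strain, age or sex of the mice, and no treatment is named. The labels also do not state that each library came from a separate animal. The p-values therefore set the genotype difference against the spread between these libraries, which may not be the spread between animals.

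Cells recognise viral or misplaced RNA and DNA with sensor proteins, which signal through adaptors to the factors IRF3 and IRF7 and switch on the genes of type I interferons. Secreted interferon binds receptors on neighbouring cells, and a complex that holds STAT2 and IRF9 then binds interferon-stimulated response elements near the start sites of many genes. The products of these genes block viral entry, translation and replication, and several of them (Irf7, Ddx58, Ifih1) feed back on sensing. Loss of LSD1 has been linked in tumour cells to transcription of endogenous retroviruses and to an interferon response.

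The promoter windows of 4 members are printed because Ifit2, which differed from its neighbours in the results, can then be read beside the Ifit genes next to it and beside Isg15, the member that varied most among knockout libraries. Each window runs from 250 bases before to 50 bases after the start site in RefSeq (GRCm38.p6), written 5′ to 3′ on the strand of the gene. Capitals mark matches to GAAANNGAAA on either strand, the core of an interferon-stimulated response element, which reads TTTCNNTTTC on the reverse strand, with overlapping matches kept. The windows are chr4:156200769-156201068 on the minus strand for Isg15, and chr19:34640639-34640938, chr19:34583279-34583578 and chr19:34550444-34550743 on the plus strand for Ifit1, Ifit3 and Ifit2.
Isg15: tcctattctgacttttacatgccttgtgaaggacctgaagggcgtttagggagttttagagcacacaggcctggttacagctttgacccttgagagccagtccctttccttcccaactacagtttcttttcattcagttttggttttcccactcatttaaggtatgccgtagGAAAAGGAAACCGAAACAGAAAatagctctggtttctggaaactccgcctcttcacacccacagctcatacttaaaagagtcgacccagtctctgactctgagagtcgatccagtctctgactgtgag
Ifit1: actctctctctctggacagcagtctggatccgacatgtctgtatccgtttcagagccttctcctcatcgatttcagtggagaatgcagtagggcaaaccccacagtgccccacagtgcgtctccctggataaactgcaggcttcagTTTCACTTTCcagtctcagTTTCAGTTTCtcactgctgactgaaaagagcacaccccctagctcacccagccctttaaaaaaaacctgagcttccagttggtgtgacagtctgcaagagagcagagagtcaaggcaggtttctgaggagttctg
Ifit3: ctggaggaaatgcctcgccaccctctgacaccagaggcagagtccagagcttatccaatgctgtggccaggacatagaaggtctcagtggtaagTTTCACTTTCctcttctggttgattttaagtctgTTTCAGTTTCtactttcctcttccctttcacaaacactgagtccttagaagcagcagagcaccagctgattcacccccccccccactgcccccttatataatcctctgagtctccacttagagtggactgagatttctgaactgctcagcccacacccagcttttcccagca
Ifit2: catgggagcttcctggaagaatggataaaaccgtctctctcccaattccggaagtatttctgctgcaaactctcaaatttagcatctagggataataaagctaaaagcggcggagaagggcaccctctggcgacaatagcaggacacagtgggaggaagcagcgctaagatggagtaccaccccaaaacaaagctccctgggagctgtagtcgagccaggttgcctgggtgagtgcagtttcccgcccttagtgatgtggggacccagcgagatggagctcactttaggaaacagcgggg
The Isg15 window held 3 overlapping matches, Ifit1 and Ifit3 held 2 each, and Ifit2 held 0 in this window and 0 in the window of its other start site. RefSeq windows were matched for 24 of the 31 members, and 13 of the 24 (54.2%) held the motif, against 1079 of 27025 genes with a window (3.99%). The motif stood in 9 of 14 effector windows (64.3%), 3 of 5 sensing windows (60%) and 1 of 5 transcription factor windows (20%), and only effectors held 2 or more matches (6 genes). These letters describe the windows and were not tested for binding. The 4 printed genes were picked by their results, so they cannot show whether matches go with spread among knockouts. The highest knockout library exceeded the lowest 14.8-fold for Isg15 and 1.32-fold for Ifit2. This ratio was 6.24 for Irf7 and 4.46 for Oasl2, with 0 matches each, and 1.34 for Rsad2, with 1 match. A link between motif and spread was not tested. Zbp1, Mx1, Mx2, Oas2, Rtp4, Dhx58 and Usp18 were not matched to a window.

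The libraries held 19524945 to 28544511 counts, so that 1 count stood for 0.0350 to 0.0512 CPM, the abundance scaled to library size. Kdm1a itself was at 109.8, 112.0, 119.8 and 109.7 CPM in control replicates 1 to 4 and at 94.0, 95.3, 90.9 and 94.2 CPM in knockout replicates 1 to 4. All knockout libraries lay below all controls. An exact two-sided permutation test over 70 assignments gave p = 0.0286. This is the smallest value that test can give, and it follows from the separation of the groups. The log2 ratio of knockout to control, the fitted log2 fold change, was -0.27 (SE 0.05, adjusted p = 0.0194). The call ended without control replicate 1 or 3 or knockout replicate 1, 2 or 4 (adjusted p = 0.00691 to 0.0765 over the 8 omissions). On the main axis of variation over all genes (62.7% of the variance), control replicate 2 stood at 9.56 beside knockout replicate 3 at 9.71, while the other controls ran from -78.7 to -52.4 and the other knockouts from 48.3 to 68.4. By chi-square per degree of freedom, control replicate 2 was also nearer to the knockouts (17.8 to 22.8) than to the other controls (35.1 to 61.8), so results are also given without these 2 libraries. Transcripts of 4 Y-linked genes were present in control replicates 1, 3 and 4 and knockout replicates 2 and 3 (228.7 to 289.4 CPM summed) and near 0 in control replicate 2 and knockout replicates 1 and 4 (0.760 to 2.63 CPM). Summed transcripts of 8 adrenal marker genes reached 2593 CPM in knockout replicate 1, 345.0 in replicate 4 of the same genotype and 141.9 in control replicate 4, against 11.8 to 15.6 CPM in the other 5 libraries. Transcripts of 6 germ cell markers summed to 39.2 CPM in control replicate 2 and to at most 3.27 CPM elsewhere. The kidney genes Pax2 and Pax8 were present in every library. They belong to a list of 9 kidney identity markers with a median log2 ratio of -1.92. Of these 9, 4 were called lower in the knockouts and 0 higher. Proximal tubule markers were called lower in 7 of 7 cases, where 8.27% of all genes were called lower. In bulk tissue, fewer cells of a type and less RNA per cell cannot be told apart.

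Taken gene by gene, few of the interferon response genes passed the test of genotype, and they spread widely among the knockout libraries. The list as a whole was not tested. Of the 31 members, 30 passed the filter on low counts and 1 was called higher in the knockouts (adjusted p under 0.05), where 6.61% of all 18485 genes tested were called higher and 14.9% in either direction. None was called lower, where 8.27% of all genes were, and 3 members (Ddx58, Oas2 and Ifit2) had an unadjusted p under 0.05, against 35.1% of all genes. DESeq2 called 2 members higher, Oas2 and Ifit2, and 0 lower, where it called 24.4% of all genes. Limma-voom with sample weights called 1 higher (Ifit2) and 3 lower (44.9% of all genes), and the fit without control replicate 2 and knockout replicate 3 called 1 higher and 4 lower (42.7% of all genes). Those 2 libraries were picked because they lay nearest to the other genotype over all genes. Knockout replicate 3 was also the highest library for 22 members, so that fit is no independent check. In the main fit, the log2 ratio was positive for 26 of the 30, against 50.5% of all genes, and negative for Mavs, Ifit3, Ifi44 and Cxcl10. Their median was 0.34, against 0.00 over all genes tested, and by role it was 0.43 for sensing, 0.25 for transcription factors and 0.35 for effectors. The member median turned negative under limma-voom with sample weights (-0.12) and without control replicate 2 and knockout replicate 3 together (-0.02), and it was 0.10 without knockout replicate 3 and 0.57 without knockout replicate 4. With a covariate for Y-linked transcripts 3 members were called higher, where 11.2% of all genes were called.

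**Figure D1:**
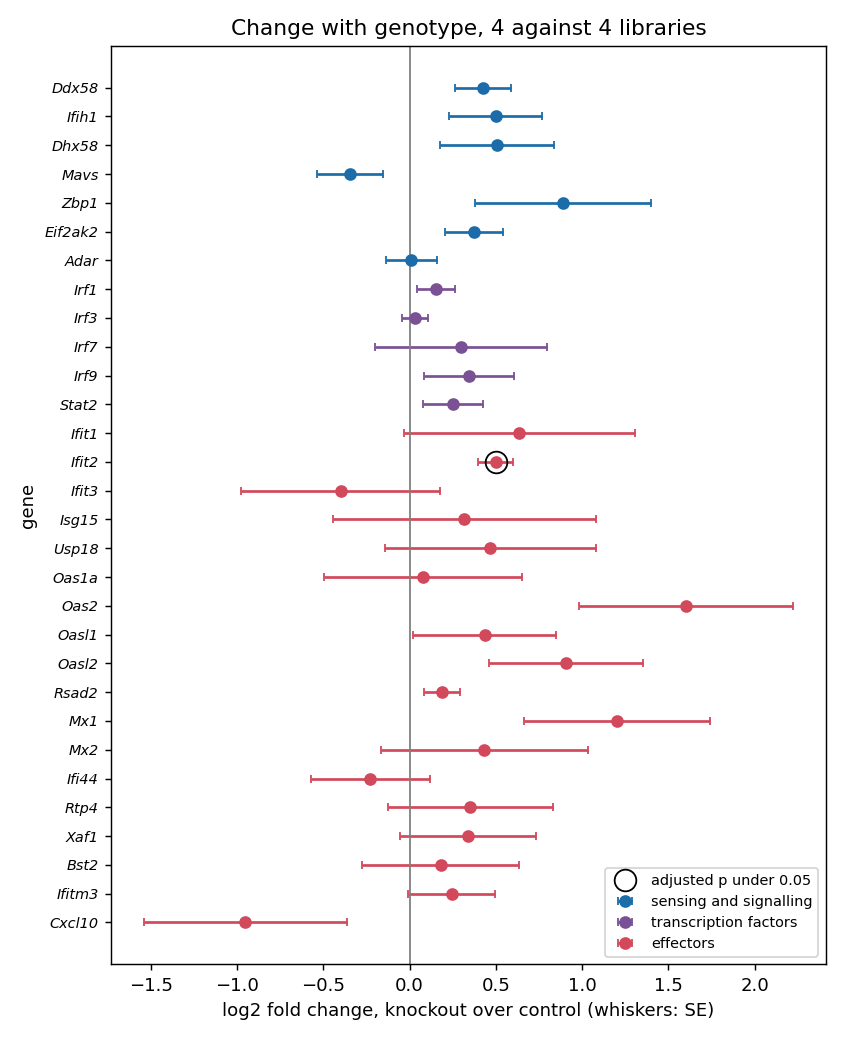
Log2 ratio (knockout over control, x axis) of the 30 tested interferon response genes (y axis), with whiskers for the standard error and colours for the 3 roles. The ringed gene, Ifit2 at 0.50, was the only member with an adjusted p under 0.05, and 26 of the 30 points lie to the right of 0.

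Ifit2 (ENSMUSG00000045932, chromosome 19, 34550694 to 34576419, plus strand, GRCm38), whose product binds RNA and restrains translation of viral messages, was the called member. It was at 25.8, 24.4, 29.7 and 27.4 CPM in control replicates 1 to 4 and at 36.6, 44.8, 33.8 and 36.7 CPM in knockout replicates 1 to 4. Every knockout library lay above every control, which held for no other tested member and for 9.29% of all genes. No member had every knockout below every control, against 9.58% of all genes. The log2 ratio was 0.50 (SE 0.10, adjusted p = 0.0206), with means of 26.8 ± 2.26 and 37.98 ± 4.75 CPM (SD, n = 4 each). The call was lost when control replicate 1 or 4 or knockout replicate 1, 2 or 4 was left out (adjusted p = 0.0101 to 0.0620 over the 8 omissions), while the log2 ratio stayed between 0.41 and 0.57. The summed CPM of 20 leukocyte markers was also higher in every knockout library (179.3 to 198.7) than in every control (133.4 to 161.4), and the part of these cells in the Ifit2 difference was not tested.

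The neighbours of Ifit2 on chromosome 19 did not share its pattern. Ifit3 (34583531 to 34588731, plus strand), which stabilises the antiviral IFIT complex, was at 8.44, 7.05, 17.6 and 14.0 CPM in controls and 3.51, 9.64, 19.5 and 2.99 CPM in knockouts. Ifit1 (34640871 to 34650009, plus strand), which binds RNA that lacks the host's cap methylation, was at 1.80, 1.62, 4.28 and 2.36 CPM in controls and 1.77, 6.07, 7.27 and 0.612 CPM in knockouts. For both genes the groups overlapped, knockout replicate 4 was the lowest of the 8 libraries and knockout replicate 3 the highest. Their log2 ratios were -0.40 (SE 0.58, adjusted p = 0.647) and 0.64 (SE 0.67, adjusted p = 0.518). Ifit3 has a near-identical copy, Ifit3b, so some of its reads may belong to the other gene.

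Knockout replicates did not move together. Against the range of the 4 controls, 5 of the 30 tested members were above every control in knockout replicate 1, 22 in replicate 2, 27 in replicate 3 and 1 in replicate 4, where 28.7%, 29.7%, 21.7% and 27.4% of all genes were. Below every control were 8 members in replicate 1, 1 in replicate 2, 1 in replicate 3 and 21 in replicate 4, where 29.1%, 30.6%, 21.5% and 29.2% of all genes were. Knockout replicate 3 was the highest of the 8 libraries for 22 members (8.16% of all genes), and knockout replicate 4 was the lowest for 21 (9.54% of all genes). The median log2 deviation of the members from the control mean was -0.12, 0.72, 0.88 and -0.44 in knockout replicates 1 to 4, and -0.10, -0.29, 0.26 and 0.11 in control replicates 1 to 4.

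**Figure D2:**
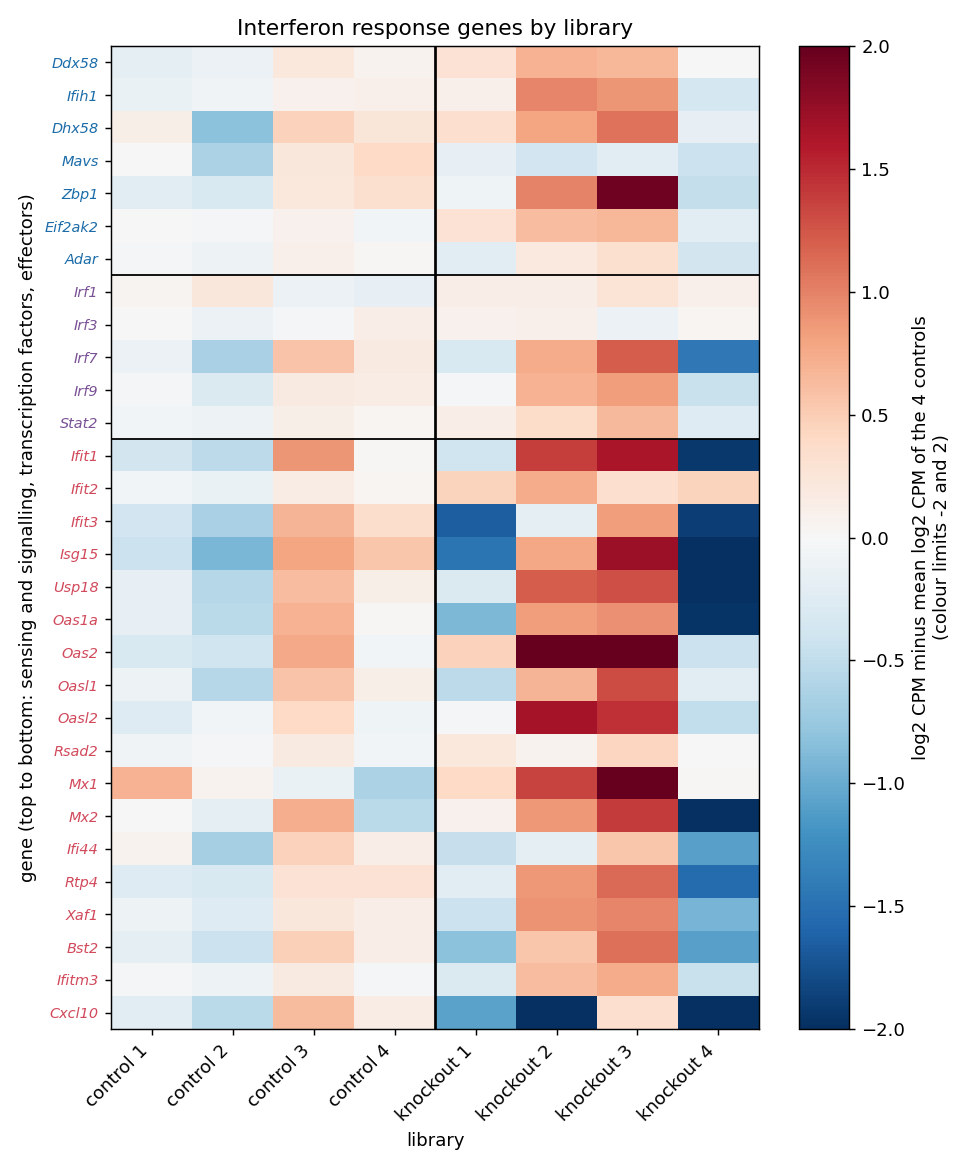
Log2 CPM of each of the 30 tested members (rows, by role) in each library (columns), minus the mean of the 4 controls, with colours held between -2 and 2. Knockout replicates 2 and 3 are mostly red and knockout replicate 4 mostly blue, with 22, 27 and 1 members above every control, while the Ifit2 row is red in all 4 knockouts.

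The standard deviation of log2 CPM was larger among knockouts than among controls for 27 of 30 members (90%), where it was larger for 38.3% of all genes. Its median was 0.36 in controls and 0.87 in knockouts for the members, and 0.21 and 0.17 for all genes. By role, the knockout spread was the larger for 18 of 18 effectors, 4 of 5 transcription factors and 5 of 7 sensing genes. The median standard deviation of effectors was 0.47 in controls and 1.11 in knockouts, against 0.18 and 0.40 for sensing genes and 0.18 and 0.38 for transcription factors. The highest knockout library exceeded the lowest 14.8-fold for Isg15, 11.9-fold for Ifit1 and 10.8-fold for Usp18, but 1.32-fold for Ifit2 and 1.16-fold for Irf3.

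Among the RNA sensors, Ddx58 encodes RIG-I, which detects short RNA with a 5′ triphosphate. It was at 24.3, 25.4, 31.8 and 28.8 CPM in control replicates 1 to 4 and at 33.4, 44.2, 43.5 and 27.2 CPM in knockout replicates 1 to 4. Knockout replicates 1, 2 and 3 lay above every control and replicate 4 within their range, and the log2 ratio was 0.43 (SE 0.16, adjusted p = 0.0992). Ifih1 encodes MDA5, the sensor of long double-stranded RNA. It was at 10.8, 11.3, 12.6 and 12.7 CPM in controls and at 12.7, 23.2, 21.8 and 9.28 CPM in knockouts. Knockout replicates 2 and 3 were high and replicate 4 was below every control, with a log2 ratio of 0.50 (SE 0.27, adjusted p = 0.214). Dhx58 encodes LGP2, the regulator of these sensors, and it ranged from 1.76 to 4.28 CPM in controls and from 2.77 to 6.57 CPM in knockouts, with a log2 ratio of 0.51 (SE 0.33, adjusted p = 0.293).

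Mavs encodes the mitochondrial adaptor onto which RIG-I and MDA5 signal, and it went the other way from the sensors in its estimate. It was at 39.0, 25.5, 46.2 and 52.0 CPM in control replicates 1 to 4 and at 35.2, 30.0, 33.6 and 29.3 CPM in knockout replicates 1 to 4. Controls 1, 3 and 4 lay above every knockout. Control 2, the library with germ cell transcripts and the only control without Y-linked transcripts, lay below every knockout. The log2 ratio was -0.34 (SE 0.19, adjusted p = 0.225), and without control replicate 2 it was -0.51 with an adjusted p of 0.00753 (range over the 8 omissions 0.00753 to 0.490). The fit without control replicate 2 called 7084 of 18953 genes. It leaves out the only control that lay below the knockouts, so its Mavs call gives no support for a fall.

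Zbp1 encodes a sensor of left-handed double-stranded nucleic acid. It was at 0.696, 0.649, 0.928 and 0.9999 CPM in controls and at 0.760, 1.61, 3.11 and 0.576 CPM in knockouts, with a log2 ratio of 0.89 (SE 0.51, adjusted p = 0.239). Eif2ak2 encodes the kinase PKR, which stops translation on binding double-stranded RNA. It was at 31.6 to 34.9 CPM in controls and spanned 28.1 to 51.7 CPM in knockouts, with a log2 ratio of 0.37 (SE 0.17, adjusted p = 0.152). In both genes knockout replicates 2 and 3 were above every control and replicate 4 below every control, and for Eif2ak2 replicate 1 was above every control too. Adar encodes the enzyme that edits double-stranded RNA and so masks it from the sensors, and its means of 33.6 ± 2.05 and 33.8 ± 7.53 CPM (SD, n = 4) gave a log2 ratio of 0.01 (SE 0.15, adjusted p = 0.966).

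**Figure D3:**
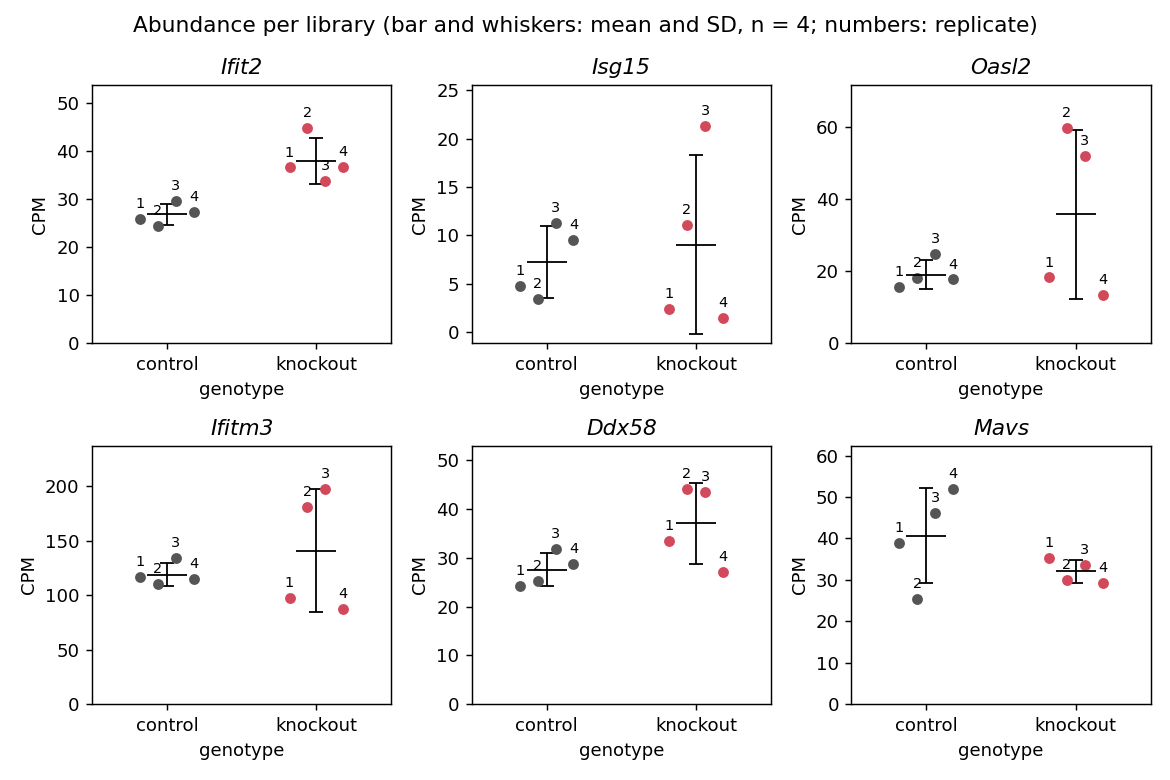
CPM of 6 members (y axis) in the control and knockout libraries (x axis), each point a library numbered by its replicate, with the mean and SD of 4. Ifit2 separates the groups (24.4 to 29.7 against 33.8 to 44.8 CPM), whereas Isg15, Oasl2 and Ifitm3 have knockout libraries both above and below the controls, and the SD of Isg15 in knockouts (9.26) exceeds its mean (9.04).

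The transcription factors divided by how far they varied. Irf3, which is present before infection and is activated by phosphorylation, was at 61.5, 57.0, 60.9 and 67.4 CPM in controls and 65.6, 66.2, 57.0 and 63.5 CPM in knockouts. The groups overlapped over nearly their whole range, with a log2 ratio of 0.03 (SE 0.07, adjusted p = 0.782). Irf1, an activator induced mainly by interferon gamma, was at 15.04 to 19.8 CPM in controls and 18.1 to 20.5 CPM in knockouts, with a log2 ratio of 0.15 (SE 0.11, adjusted p = 0.331).

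Irf7, itself an interferon target that amplifies the response, varied much more. It was at 7.74, 5.33, 12.5 and 9.50 CPM in control replicates 1 to 4 and at 6.80, 14.0, 19.3 and 3.09 CPM in knockout replicates 1 to 4. Knockout replicates 2 and 3 lay above every control and replicate 4 below every control, with a log2 ratio of 0.30 (SE 0.50, adjusted p = 0.692). Irf9, the DNA-binding partner of STAT2, was at 38.2, 31.7, 43.7 and 42.8 CPM in controls and 38.3, 63.1, 69.3 and 28.5 CPM in knockouts. Stat2 was at 18.2, 17.5, 20.5 and 19.5 CPM in controls and 20.7, 24.2, 29.5 and 15.8 CPM in knockouts. Both had the same libraries at the top (replicates 2 and 3) and the bottom (replicate 4), with log2 ratios of 0.35 (SE 0.26, adjusted p = 0.362) and 0.25 (SE 0.17, adjusted p = 0.319). The Irf9 counts may include reads of Rnf31, with which it shares 123 exon bases on the same strand.

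Among the effectors, Isg15 encodes a ubiquitin-like modifier that is attached to proteins during the response (chromosome 4, 156199424 to 156200818, minus strand). It was at 4.79, 3.43, 11.3 and 9.54 CPM in control replicates 1 to 4 and at 2.37, 11.0, 21.3 and 1.44 CPM in knockout replicates 1 to 4. Knockout replicates 1 and 4 lay below every control, replicate 3 above every control and replicate 2 within the controls. The log2 ratio was 0.32 (SE 0.76, adjusted p = 0.789). Usp18, which removes ISG15 from proteins and dampens receptor signalling, was at 3.11, 2.36, 5.37 and 3.77 CPM in controls and 2.87, 8.13, 8.51 and 0.791 CPM in knockouts. Its log2 ratio was 0.47 (SE 0.61, adjusted p = 0.609), with knockout replicates 2 and 3 high and replicate 4 low.

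The oligoadenylate synthetases, which make the messenger that activates RNase L, and their relatives lie in clusters on chromosome 5. Oas2 (120730333 to 120749853, minus strand) was at 1.64, 1.53, 3.43 and 1.95 CPM in controls and 2.79, 12.2, 9.65 and 1.51 CPM in knockouts. Its log2 ratio of 1.60 (SE 0.62, adjusted p = 0.104) was the largest of the members, and knockout replicates 2 and 3 alone lay above every control. Oasl2 (114896936 to 114912234, plus strand) was at 15.7, 18.2, 24.8 and 17.8 CPM in controls and 18.3, 59.8, 52.1 and 13.4 CPM in knockouts. The same knockout replicates were high, and the log2 ratio was 0.91 (SE 0.44, adjusted p = 0.178). Oasl1, a relative that restrains translation of Irf7, had a log2 ratio of 0.43 (SE 0.41, adjusted p = 0.473). Oas1a, whose close paralogs make its counts uncertain, had a log2 ratio of 0.08 (SE 0.57, adjusted p = 0.933). Oas3 did not pass the filter, with 30 counts in all controls together and 64 in all knockouts (0.127 to 1.52 CPM per library).

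Membrane and entry restriction genes were the most abundant members per length. Ifitm3, which blocks viral entry at endosomes, had a control mean of 175.5 RPKM, the CPM divided by gene length in kilobases, ahead of Bst2 at 57.5, Irf3 at 17.9 and Rsad2 at 17.4 RPKM, while Mx1 was at 0.102 and Oas3 at 0.0447 RPKM. Ifitm3 was at 116.8, 110.2, 134.2 and 114.9 CPM in control replicates 1 to 4 and at 97.3, 181.4, 197.7 and 87.3 CPM in knockout replicates 1 to 4. Bst2, which tethers budding virus to the cell surface, was at 44.4, 37.7, 70.2 and 55.3 CPM in controls and 28.5, 74.1, 108.8 and 23.7 CPM in knockouts. In both, knockout replicates 2 and 3 were above every control and replicates 1 and 4 below every control. The log2 ratios were 0.24 (SE 0.25, adjusted p = 0.512) and 0.18 (SE 0.45, adjusted p = 0.799).

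Rsad2 encodes viperin, which makes a nucleotide analogue that ends viral RNA synthesis, and it varied little. It was at 71.2, 72.9, 84.6 and 72.1 CPM in controls and 87.3, 78.4, 101.2 and 75.6 CPM in knockouts. Knockout replicates 1 and 3 lay above every control, and the log2 ratio was 0.19 (SE 0.10, adjusted p = 0.221). The dynamin-like GTPases Mx1 and Mx2, which trap viral particles, had log2 ratios of 1.201 (SE 0.54, adjusted p = 0.148) and 0.43 (SE 0.60, adjusted p = 0.630). Mx1 was among the least abundant members, with 0.227 to 0.574 CPM in controls and 0.3597 to 1.73 CPM in knockouts.

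Of the remaining effectors, Rtp4 and Xaf1 had log2 ratios of 0.35 (SE 0.48, adjusted p = 0.622) and 0.34 (SE 0.40, adjusted p = 0.563), and both were high in knockout replicates 2 and 3 and low in replicate 4. Ifi44 had a log2 ratio of -0.23 (SE 0.34, adjusted p = 0.663). Cxcl10, a chemokine that draws T cells, was at 0.983, 0.788, 1.78 and 1.27 CPM in controls and 0.549, 0.251, 1.45 and 0.180 CPM in knockouts. It was below every control in knockout replicates 1, 2 and 4, unlike most members, which were high in replicate 2, and its log2 ratio was -0.95 (SE 0.59, adjusted p = 0.271). Without knockout replicate 3, the only knockout within the control range, Cxcl10 was called lower, at -1.86. That was the 1 call among the 8 omissions (adjusted p = 0.0356 to 0.507), in a fit that called 3192 of 18725 genes. Leaving out the knockout nearest to the controls favours such a call, so it gives no support for a fall. Cxcl10 shares 133 exon bases with Art3 on the opposite strand, and 11 members in all share exon bases with another gene. Overlaps on opposite strands matter where counting ignored strand. The overlaps of Irf9 with Rnf31 (123 bases) and Rtp4 with Gm45338 (296 bases) are on the same strand and may matter in either case.

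Among the knockouts, sensing genes, transcription factors and effectors followed the same order of libraries (replicates 4, 1, 2 and 3 from low to high) but not to the same extent. The mean log2 CPM of the 7 sensing genes departed from the control mean by 0.08, 0.54, 0.74 and -0.28 in knockout replicates 1 to 4. For the 18 tested effectors the departures were -0.38, 0.69, 1.12 and -1.08, and for the 5 transcription factors 0.01, 0.41, 0.57 and -0.40. The effectors spanned the widest range of the 3 roles in the knockouts, and their order over all 8 libraries was not that of the sensing genes. Sensing minus effector mean log2 CPM was 0.82, 0.83, 0.48 and 0.86 in controls and 1.21, 0.60, 0.37 and 1.55 in knockouts, so the groups overlapped. The difference in group means was 0.18, and it was -0.02 without knockout replicate 4 and 0.37 without knockout replicate 3.

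**Figure D4:**
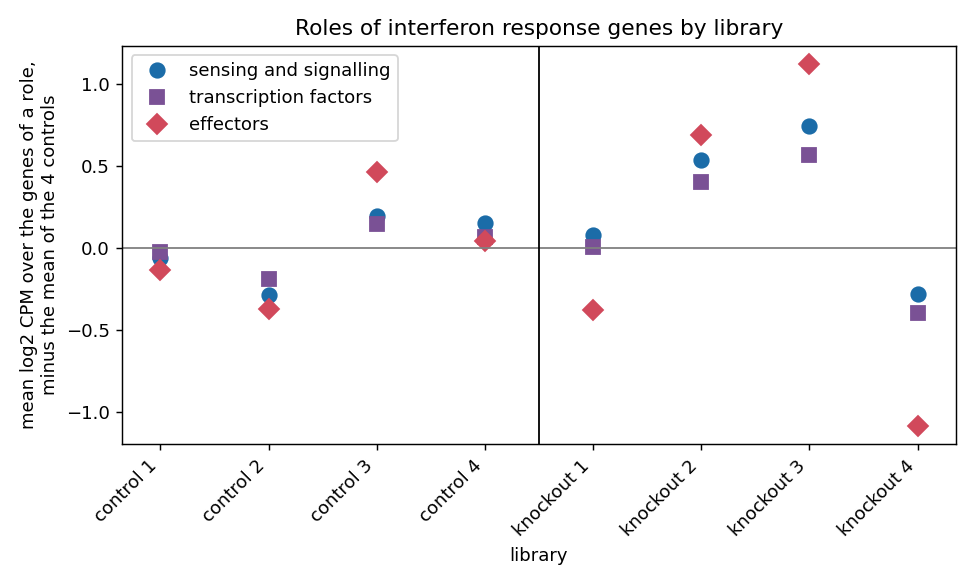
Mean log2 CPM over the genes of each role (y axis, minus the mean of the 4 controls) in each library (x axis), for 7 sensing genes, 5 transcription factors and 18 effectors. The effector points span -1.08 to 1.12 among the knockouts and the sensing points -0.28 to 0.74.

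The Y-linked transcripts divided the libraries in the same way as many members did among the knockouts. In the 5 libraries with these transcripts (3 controls and 2 knockouts), 23 of 30 members were higher in both knockouts than in every control, against 27.9% of all genes, and 1 was lower, against 27.6% of all genes. The median difference was 0.68 in log2 CPM. In the 3 libraries without them (1 control and 2 knockouts), 7 members were above the control in both knockouts and 9 below it, against 36.8% and 38.6% of all genes, with a median difference of -0.11. The latter has 1 control and no test.

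Chosen after the data were seen, a fit to the 5 libraries with Y-linked transcripts keeps only knockout replicates 2 and 3, already the high ones, so its calls restate that observation and give it no support. It called 11 members higher (Ddx58, Ifih1, Zbp1, Eif2ak2, Irf9, Usp18, Oas2, Oasl2, Rtp4, Xaf1 and Ifitm3) and Mavs lower of 31 tested, where 16.7% of 18944 genes were called. Ifit2 was not called there (adjusted p = 0.0548, with 0.000390 to 0.0548 over the alternatives other than leaving out 1 library). Whether the effect of genotype differed between the libraries with and without Y-linked transcripts was tested by an interaction term. It called 0 of 30 members (smallest adjusted p = 0.132, for Ifitm3) and 3 of 18485 genes (0.0162%), with an unadjusted p under 0.05 for 11 members and 15.3% of all genes. The interaction estimate was positive for 26 members, against 48.1% of all genes, with a median of 0.88 against -0.02. The split sets the high knockout replicates 2 and 3 against replicates 1 and 4, with 1 control among the libraries without Y-linked transcripts. These estimates therefore also restate the earlier observation and give it no support. Both knockouts without Y-linked transcripts were also the knockouts with adrenal transcripts, so the Y-linked split and the adrenal transcripts cannot be told apart among the knockouts.

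Transcripts of the interferon genes looked up were barely detected at this depth. Of the interferon alpha genes, only Ifna1, Ifna2, Ifna4 and Ifna5 were among them. Of the 10 ligand genes looked up, 7 had no count in any library and none passed the filter, with 6 counts in total, from Ifne, Ifnk and Ifng. The 9 receptor and kinase genes held 0 calls in either direction, where 14.9% of all genes were called, and a median log2 ratio of -0.09. Ifngr2, a chain of the interferon gamma receptor, was at 59.3 ± 3.33 CPM in controls and 55.0 ± 1.90 CPM in knockouts (SD, n = 4). Ifnar2, a chain of the type I receptor, was at 33.2 ± 2.03 and 36.1 ± 1.93 CPM.

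Of 17 other sensing and signalling genes tested, 2 were called higher and 0 lower, with a median log2 ratio of 0.24. Of all genes, 6.61% were called higher and 8.27% lower. Ikbke, a kinase that phosphorylates IRF3 and IRF7, was at 11.4, 11.5, 10.4 and 10.4 CPM in controls and 17.0, 15.2, 15.6 and 14.1 CPM in knockouts. It rose in every knockout library (log2 ratio 0.50, SE 0.10, adjusted p = 0.0200). Tmem173, which encodes the DNA-sensing adaptor STING, rose (19.5 ± 2.85 against 26.7 ± 2.80 CPM, log2 ratio 0.45, SE 0.12, adjusted p = 0.0392), and 6 of the 8 omissions of a single library ended the call.

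The other type I interferon response genes held 5 calls higher and 0 lower of 31 tested, with a median of 0.31, where 6.61% of all genes were called higher and 8.27% lower. Cmpk2, a mitochondrial nucleotide kinase whose gene lies next to Rsad2 on chromosome 12, was at 24.6, 23.8, 27.8 and 22.7 CPM in controls and 48.4, 48.2, 38.8 and 49.4 CPM in knockouts. All knockouts lay above all controls, and it rose by a log2 ratio of 0.90 (SE 0.10, adjusted p = 0.00515), with a call under each alternative tried. Ifitm1, a relative of Ifitm3, rose by 0.45 (SE 0.09, adjusted p = 0.0213), Ifi27 by 0.72 (SE 0.16, adjusted p = 0.0262) and Pml, the scaffold of nuclear bodies, by 0.30 (SE 0.07, adjusted p = 0.0291). Apobec3, an antiviral deaminase named here after its values were seen, was the fifth, at 0.49 (SE 0.13, adjusted p = 0.0377). For Ikbke, Ifitm1, Ifi27 and Pml, the call ended in 6, 5, 6 and 6 of the 8 omissions.

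**Figure D5:**
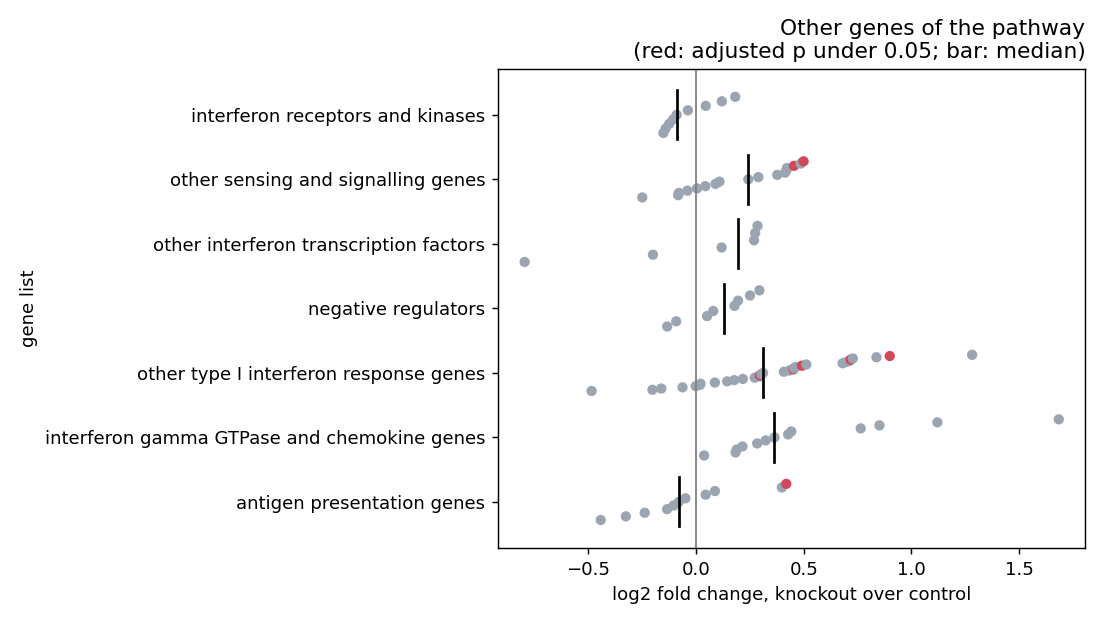
Log2 ratio (knockout over control, x axis) of the tested genes in 7 other lists of the pathway (y axis), with black bars at the medians and red points at adjusted p under 0.05. The 8 red points are all to the right of 0, with 5 of them among the other type I interferon response genes.

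The other lists held few calls, where 6.61% of all genes were called higher and 8.27% lower. None of the 6 other transcription factors, 8 negative regulators or 13 interferon gamma GTPase and chemokine genes was called, with medians of 0.19, 0.13 and 0.36. Gbp2, a GTPase induced by interferon gamma, was at 3.35 ± 1.14 CPM in controls and 7.29 ± 3.32 CPM in knockouts (SD, n = 4), with a log2 ratio of 1.12 (SE 0.35, adjusted p = 0.0594). Of 11 antigen presentation genes, B2m, the light chain of MHC class I, was called higher. It was at 119.1, 123.2, 131.0 and 112.8 CPM in controls and 142.8, 180.6, 186.6 and 139.9 CPM in knockouts, a log2 ratio of 0.42 (SE 0.11, adjusted p = 0.0338). The knockout replicates 2 and 3 were again the highest, but here all 4 knockouts exceeded all controls. Here too, 6 of the 8 omissions of a library ended the call.

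Some leukocyte markers were also called. Of 20 such genes, 13 were tested, 11 had a positive and 2 a negative log2 ratio, 3 were called higher (Ptprc, C1qa and C1qc, against 6.61% of all genes) and 0 lower, and none was at 0 in all libraries. The list was not tested as a group. Ptprc, the pan-leukocyte antigen CD45, rose from 20.3 ± 4.99 to 38.6 ± 3.07 CPM (log2 ratio 0.93, SE 0.16, adjusted p = 0.0146). That call ended only without knockout replicate 4 among the 8 omissions (adjusted p = 0.00111 to 0.0571). The T cell, B cell, dendritic and natural killer genes Cd3d, Cd3e, Cd3g, Ms4a1, Itgax, Nkg7 and Siglech had too few counts to be tested. The summed leukocyte markers were 179.3, 193.1, 198.7 and 179.9 CPM in knockout replicates 1 to 4, so they were also highest in replicates 2 and 3. Their part in the interferon results was not tested. Endothelial markers had negative log2 ratios in 7 of 7 cases, with Emcn called lower, a call that held in 2 of the 8 omissions of a library (adjusted p = 0.0105 to 0.112).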

How the data were processed

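The deposited tables hold unnormalized counts of reads for each gene, with exon coordinates and length, per the file headers. The submitters' processing notes name Trimmomatic 0.36, STAR 2.5.2b, featureCounts of Subread 1.5.2, DESeq2 and GRCm38, with no role or order. How strand and multi-mapping reads were handled is not given in the sources used here. Symbols came from GENCODE M21 for 48970 of 49315 genes. Libraries were grouped by the labelled genotype.

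Counts were scaled by TMM and genes kept with filterByExpr (18485 genes). Genotypes were compared with edgeR 4.0.16 (R 4.3.3, quasi-likelihood F test, genotype as the sole term) and Benjamini-Hochberg adjustment over all genes tested. Genes with an adjusted p under 0.05 are described as called. CPM use TMM library sizes, log2 CPM a prior count of 2, and RPKM the deposited lengths. With totals of 19524945 to 28544511, counting limits the precision of members near 1 CPM. Of 28 pairs of libraries, none agreed within sampling noise (chi-square per degree of freedom at least 12.0).

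The members and gene lists were chosen with earlier results of these data known. The text names the members and Kdm1a. From each pathway list it names up to 4 called genes with the smallest adjusted p, or, where none was called, up to 2 with the smallest p, and from marker lists the gene of smallest p or highest abundance. Alternatives were DESeq2 1.42.0 and its size factors, voom of limma 3.58.1 with sample weights, other filters, a replicate block, a Y-linked covariate, the table of the whole series and libraries left out. The fit to libraries with Y-linked transcripts and the interaction were chosen after seeing the data. Control replicate 2 and knockout replicate 3 were also picked from these data to be left out together.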

Additional observations from a re-analysis of the deposited data

Results flagged for a closer look

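In groups of 4 libraries, a library was looked at again where its gap to the nearest other library exceeded the 95% critical share of the group's whole range in Dixon's test, which chance gives in about 1 in 20 groups. This was met 8 times in 122 groups. Rsad2 was at 84.6 CPM in control replicate 3, above the other controls (71.2 to 72.9 CPM). Cmpk2 was at 38.8 CPM in knockout replicate 3, below the other knockouts (48.2 to 49.4 CPM). The sensing minus effector mean log2 CPM was 0.48 in control replicate 3, below the other controls (0.82 to 0.86). Among marker genes, knockout replicate 3 stood above the other knockouts for the proximal tubule gene Kap (2.11 CPM) and the collecting duct gene Aqp2 (508.1 CPM). The adrenal gene Cyp21a1 stood out at 36.5 CPM in control replicate 4 and at 693.9 CPM in knockout replicate 1, and the meiotic gene Sycp3 at 10.9 CPM in control replicate 2.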

How the results depend on the processing

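Leaving out each library in turn gave 153 to 7084 called genes (2751 with all libraries), with 153 without knockout replicate 4 and 7084 without control replicate 2. Members called higher ran from 0 to 1 and lower from 0 to 1. Pathway genes called ran from 1 to 18 (8 with all libraries), higher from 1 to 15 and lower from 0 to 3, and the Kdm1a log2 fold change from -0.29 to -0.24, called in 3 of 8. DESeq2 called 4506 genes (24.4% of all tested), 2 members higher and 17 pathway genes, all 17 higher. Limma-voom with sample weights called 8302 genes (44.9% of all tested), 3 members lower (Mavs, Cxcl10 and Ifit3) and 22 pathway genes (16 higher, 6 lower). The Y-linked covariate gave 3 members higher (Ddx58, Oas2 and Ifit2). Without control replicate 2 and knockout replicate 3 together, 7903 genes (42.7% of all tested), 4 members lower (Mavs, Ifi44, Cxcl10 and Ifit3) and 22 pathway genes (13 higher, 9 lower) were called. In libraries with Y-linked transcripts alone, 16.7% of all genes tested were called. There, 11 members were higher and 1 lower, 26 pathway genes were called, all 26 higher, and Kdm1a was at -0.28 (adjusted p = 0.0562, 4.48e-05 to 0.0562 over the alternatives other than leaving out 1 library). The cause of these shifts was not tested.

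Several log2 ratios reversed sign. Under limma-voom they were Adar -0.18, Irf7 -0.66, Irf9 -0.044, Ifit1 -0.78, Isg15 -1.24, Usp18 -0.87, Oas1a -1.07, Oasl1 -0.15, Mx2 -0.84, Rtp4 -0.53, Xaf1 -0.30, Bst2 -0.60 and Ifitm3 -0.097. Without control replicate 2 and knockout replicate 3 together they were Adar -0.15, Irf7 -0.33, Ifit1 -0.037, Isg15 -0.81, Usp18 -0.085, Oas1a -0.48, Oasl1 -0.16, Mx2 -0.16, Rtp4 -0.13, Xaf1 -0.042, Bst2 -0.44, Ifitm3 -0.0045 and Sycp3 0.026. In libraries with Y-linked transcripts they were Irf3 -0.035, Ifit3 0.14, Ifi44 0.012, Dbh -1.20, Cyp21a1 -3.22 and Sycp3 0.66. With no filter on low counts Adar -0.0080 resulted, and with the Y-linked covariate Cyp21a1 -1.10. Over the omissions of each library, the ratios that changed sign there or without both libraries ran for Adar from -0.093 to 0.14, Irf3 from -0.0055 to 0.097, Irf7 from -0.13 to 0.63, Ifit1 from 0.16 to 1.02, Isg15 from -0.55 to 0.69, Usp18 from 0.11 to 0.85, Oas1a from -0.29 to 0.43, Oasl1 from 0.026 to 0.66, Mx2 from -0.039 to 0.82, Ifi44 from -0.57 to 0.0036, Rtp4 from -0.0037 to 0.69, Xaf1 from 0.063 to 0.62, Bst2 from -0.29 to 0.46, Ifitm3 from 0.054 to 0.43 and Sycp3 from -2.01 to 0.28.

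With the replicate number as a block, 3229 genes and 1 member (Ifit2) were called, the member median was 0.17, and the reversed values were Adar -0.014, Isg15 -0.17, Oas1a -0.21 and Bst2 -0.050. Same-numbered libraries correlated at -0.11, 0.33, 0.23 and -0.06 for replicates 1 to 4, so the numbers were not taken to pair them, and not every library correlated best with its own number. Of the values for single genes other than Kdm1a, 819 kept direction and side of the threshold, 51 newly passed it and 65 no longer did, and Kdm1a lost its call in 6 of 18 settings. Counts limit Oas3, Mx1, Zbp1 and Cxcl10.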
